A study of Mus musculus with 8 samples.

Results

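The haemoglobin and erythroid genes described here are the 6 genes Hba-a1, Hba-a2, Hbb-bs, Hbb-bt, Alas2 and Slc4a1, of which 5 were among the 19057 genes named on the array. They were chosen by their array-by-array intensities in this very comparison. Their probes were found by the symbol in the platform annotation, which gave 13 of the 45281 probes and covered 5 of the 6 genes. Hba-a1 had 1 probe, Hbb-bs 6, Hbb-bt 4, Alas2 1 and Slc4a1 1, and no probe carried the symbol Hba-a2. Because this contrast, anti-miR-214 minus control antimiR, chose the genes, its values for them are a description and carry no test.

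The tissue was whole kidney of adult male mice of the strain labelled C57/bk, taken on day 7 of unilateral ureteral obstruction (UUO), in which the tied ureter keeps urine in the kidney, and inflammation and scarring follow. All animals had the obstruction. In 4 mice it was combined with anti-miR-214, an antisense agent directed at miR-214, and in 4 with a control antimiR, and each mouse gave 1 bead array. Unobstructed kidneys were not analysed here, and the labels give neither the dose of the oligonucleotides nor whether the kidneys were cleared of blood. In a sample of whole tissue, fewer cells of a type and less RNA per cell cannot be told apart.

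Haemoglobin, the oxygen carrier of red cells, is a tetramer of alpha and beta chains, each holding a haem group. Adult mice make the alpha chain from Hba-a1 and Hba-a2, which are near-identical copies, and mice with the single beta haplotype make the beta chain from Hbb-bs and Hbb-bt, which also share most of their sequence. Alas2 encodes the erythroid form of 5-aminolevulinate synthase, the first enzyme of haem synthesis. Slc4a1 encodes the anion exchanger AE1 (band 3), the main integral protein of the red cell membrane, and the kidney makes a shorter form of the same protein in the acid-secreting intercalated cells of the collecting duct. Young red cells (reticulocytes) still carry globin and Alas2 messages after their nucleus is lost, so RNA from a tissue that holds blood contains them.

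The microRNA that the treatment was directed against is shown first, because all values below compare kidneys with and without the agent against it. The labels do not name its arm, and the 3p arm is printed from RefSeq (GRCm38.p6, chr1:162223438-162223459, plus strand), with the seed (bases 2 to 8) in capitals.
mmu-miR-214-3p: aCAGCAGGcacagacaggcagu

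Since the globin probes moved together across arrays, the 150 bases upstream of the annotated start of 4 members are printed from RefSeq (GRCm38.p6), 5′ to 3′ on the strand of the gene. The windows are chr11:32283522-32283671 on the plus strand for Hba-a1, chr7:103827929-103828078 on the minus strand for Hbb-bs, chr7:103813924-103814073 on the minus strand for Hbb-bt and chrX:150547267-150547416 on the plus strand for Alas2. Capitals mark every match, on either strand, to the motif CCAAT, the motif CACCC, the motif TATAA or the motif GATAA, which are short sequences known from globin and erythroid promoters.
Hba-a1: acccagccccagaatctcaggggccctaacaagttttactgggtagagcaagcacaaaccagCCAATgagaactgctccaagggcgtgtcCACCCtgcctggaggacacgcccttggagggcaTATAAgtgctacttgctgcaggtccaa
Hbb-bs: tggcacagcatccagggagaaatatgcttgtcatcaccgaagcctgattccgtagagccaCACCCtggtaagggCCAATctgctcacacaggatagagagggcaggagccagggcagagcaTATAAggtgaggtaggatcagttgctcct
Hbb-bt: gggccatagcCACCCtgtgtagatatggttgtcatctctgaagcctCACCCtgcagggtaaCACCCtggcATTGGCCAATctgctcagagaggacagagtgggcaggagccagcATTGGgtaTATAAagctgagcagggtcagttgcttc
Alas2: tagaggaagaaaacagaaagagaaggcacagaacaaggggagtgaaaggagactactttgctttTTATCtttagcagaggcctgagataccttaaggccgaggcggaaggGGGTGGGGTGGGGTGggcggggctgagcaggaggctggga
The 3 globin windows each held the first 3 motifs, with TATAA starting 27, 29 and 28 bases before the start of Hba-a1, Hbb-bs and Hbb-bt. Over all 32851 RefSeq promoter windows of this length, 24.5% held CCAAT, 37.4% held CACCC, 14.2% held TATAA, 13.3% held GATAA and 1.1% held the first 3 together. In Hbb-bt a match on each strand to CCAAT adjoined the other, and the Alas2 window held CACCC 3 times on the opposite strand in a row and GATAA 1 time on the opposite strand. The Hba-a2 window was the same as that of Hba-a1 over 147 of 147 bases when shifted by 3, whereas Hbb-bs and Hbb-bt were equal at 106 of 149 bases. These matches describe the letters of the windows and say nothing of factor binding in these kidneys.

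Intensities were background corrected, quantile normalized and put on a log2 scale, and the test covered the 18601 probes with a detection p under 0.05 on 4 or more of the 8 arrays. All 13 probes described here passed that filter, each detected on all 4 control arrays. Between 41.8% and 43.1% of all probes were detected on control arrays and between 37.2% and 39.2% on anti-miR-214 arrays. Over all tested probes 25.6% passed the threshold (limma with Benjamini-Hochberg adjustment, adjusted p under 0.05), 13.8% lower and 11.8% higher after anti-miR-214, and the median log2 difference was 0.05. Of 14 kidney identity genes with a probe, 13 were tested and their summed raw intensity lay between 61520 and 80276 on control arrays and between 63898 and 91421 on anti-miR-214 arrays. In that list 1 gene rose, Nphs1 of the podocyte slit diaphragm (0.50, limma adjusted p = 0.00969, and 0.333 with arrays scaled to a common median). The sample labels name no slide, and the first part of the chip number in the column headers was taken as the slide. By that number, replicates 1 to 3 of each group shared a slide (slide 1), and replicate 4 of each group lay on another (slide 2). The haemoglobin level followed this layout within the anti-miR-214 group, as the plot of raw intensities by array shows, so the differences of the brightest probe of each of these genes are also given within slides. Slide 2 holds 1 array of each group and gives a difference without a test, and a slide and a mouse cannot be told apart there.

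**Figure D1:**
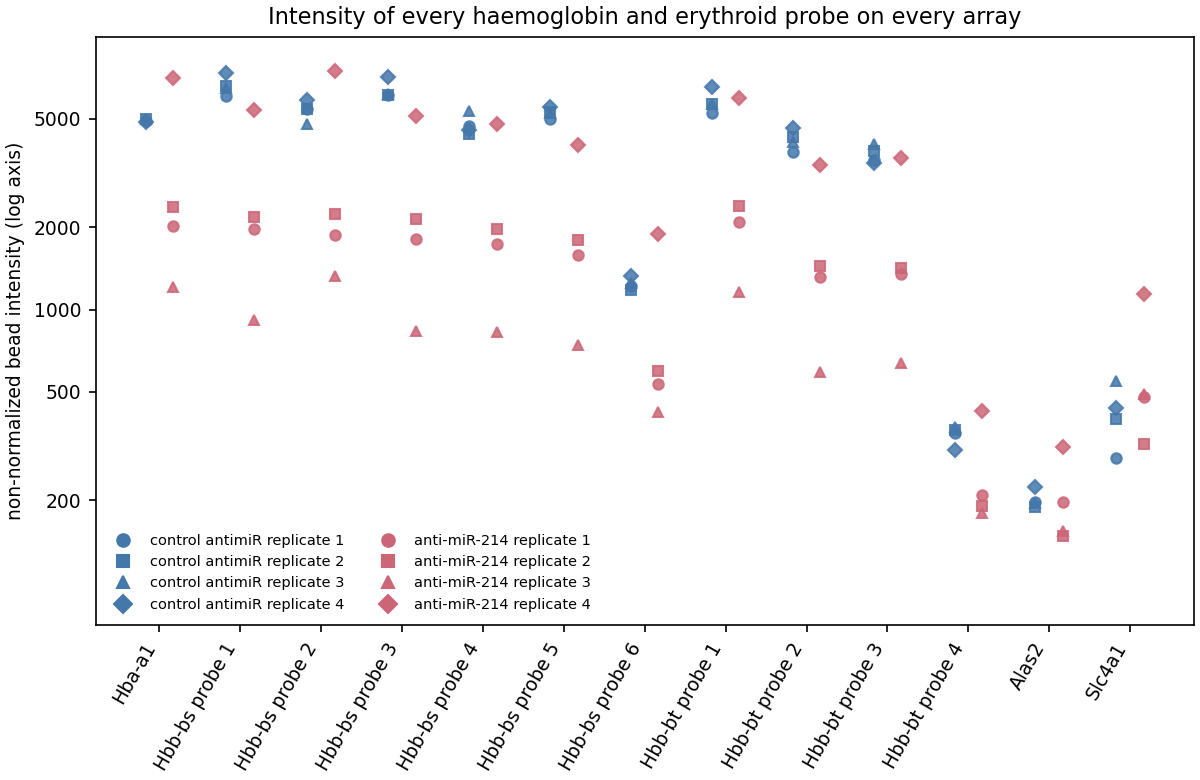
Non-normalized bead intensity (log axis) of the 13 haemoglobin and erythroid probes on each of the 8 arrays, with control antimiR in blue, anti-miR-214 in red and a marker for each replicate number. On all 11 globin probes anti-miR-214 replicates 1 to 3 lie below all 4 controls, while replicate 4 is the highest of its group on each. Levels of different probes are not comparable.

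The alpha-globin probe (Hba-a1) read 4921, 5011, 4999 and 4880 raw intensity units on control replicates 1 to 4, and 2017, 2384, 1208 and 7032 on anti-miR-214 replicates 1 to 4. The 4 controls lay close together, 3 treated kidneys were far below them, and the last of the treated kidneys was above every control. On the normalized log2 scale the level was 12.21 ± 0.06 with control antimiR against 11.26 ± 1.03 with anti-miR-214 (SD, n = 4), a difference of -0.94. In this group of 4 treated kidneys the SD was thus far wider than in the controls. Within slide 1 the difference was -1.39, or 2.62-fold lower after anti-miR-214, and on slide 2 it was 0.40, or 1.32-fold higher. Given the near identity of Hba-a1 and Hba-a2, this probe may also read Hba-a2.

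Beta-globin was read by 10 probes. The brightest Hbb-bs probe read 6063, 6613, 6509 and 7343 on the controls and 1968, 2177, 913 and 5376 on anti-miR-214 replicates 1 to 4. Here all 4 treated arrays were below all 4 controls, with replicate 4 only slightly so. The log2 level was 12.66 ± 0.17 with control antimiR against 11.02 ± 1.03 with anti-miR-214 (SD, n = 4), 3.12-fold lower over all arrays, 4.00-fold lower within slide 1 and 1.49-fold lower on slide 2. A second Hbb-bs probe read 5425, 5433, 4807 and 5858 on the controls and 1870, 2250, 1329 and 7509 on the treated arrays. On that probe replicate 4 was the highest of all 8 arrays, and its difference was -1.50 on slide 1 and 0.23 on slide 2 (log2). The 6 Hbb-bs probes together had log2 differences from -1.67 to -0.81 with a median of -1.46, and without anti-miR-214 replicate 4 they ran from -2.11 to -1.34.

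The brightest probe of Hbb-bt, the neighbouring beta-globin gene, read 5253, 5677, 5660 and 6520 on the controls and 2097, 2404, 1156 and 5964 on anti-miR-214 replicates 1 to 4. Replicate 4 lay within the range of the controls and the other 3 treated arrays lay below it. Its log2 level was 12.43 ± 0.19 with control antimiR against 11.21 ± 0.94 with anti-miR-214 (SD, n = 4), with a difference of -1.55 on slide 1 and -0.25 on slide 2. The dimmest Hbb-bt probe read 352, 363, 372 and 305 on the controls and 209, 191, 179 and 426 on the treated arrays. On treated replicate 3 it missed the detection threshold, and replicate 4 was above every control. Log2 differences of the 4 Hbb-bt probes ranged from -1.60 to -0.94. Whether a probe reads Hbb-bs, Hbb-bt or both could not be checked, because the genes share most of their sequence and the probe sequences were not at hand.

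Over the 11 globin probes the median log2 difference was -1.29 (range -1.67 to -0.81), beside a median of 0.05 over all 18601 tested probes. On slide 1 all 3 treated arrays were below all 3 controls on 11 of 11 globin probes, beside 17.4% of all tested probes. All 4 treated arrays were below all controls on 4 of 11, beside 13.8% of all tested probes, and treated replicate 4 was above all controls on 4 of 11, beside 36.4%. By the limma fit 7 of 11 were lower at an adjusted p under 0.05 (63.6%, beside 13.8% of all tested probes), a count from which nothing is read because the comparison chose the genes. Without anti-miR-214 replicate 4, the treated array highest on every globin probe, that count was 11, beside 10.4% of all tested probes. The count was 4 without control replicate 1, 2 or 3, 3 without control replicate 4, and 4 without anti-miR-214 replicate 1 or 3. Nothing is read from these counts either, and the globin probes moved together, so they are not separate observations. Of all 18601 tested probes, 2566 were lower in the main fit. That number was 2104, 1781, 2041 and 2091 with control replicates 1 to 4 left out in turn. It was 2629 without anti-miR-214 replicate 1 and 1729 without anti-miR-214 replicate 3. As a share of all raw intensity on an array, the globin probes made up 0.223% ± 0.0219 in control kidneys (SD, n = 4) and 0.0733%, 0.0937%, 0.0448% and 0.237% on anti-miR-214 replicates 1 to 4.

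**Figure D2:**
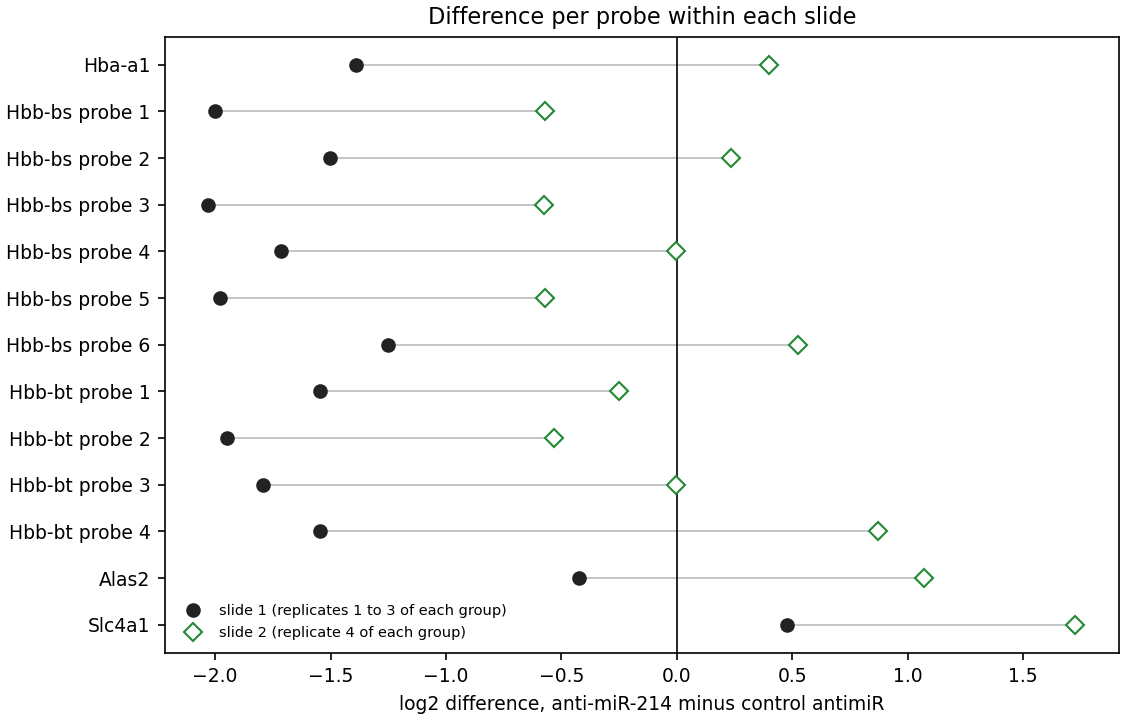
Log2 difference, anti-miR-214 minus control antimiR, for each probe within slide 1 (filled, 3 arrays per group) and on slide 2 (open, 1 array per group). Slide 1 differences of the 11 globin probes have a median of -1.71 and slide 2 differences run from -0.58 to 0.87.

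The direction held within slide 1 for all 11 globin probes (median -1.71) and not on slide 2, where 4 probes were higher and 7 lower (median below 0 by less than 0.01, range -0.58 to 0.87). Of all tested probes, 10.1% were likewise lower on slide 1 and higher on slide 2. The 4 probes that were higher on slide 2 were those of Hba-a1, 2 of Hbb-bs and 1 of Hbb-bt, so the probes of a single gene were split. Relative to the control mean, these 4 probes averaged -1.48, -1.11, -1.80 and 0.63 on anti-miR-214 replicates 1 to 4 (log2), and the other 7 averaged -1.73, -1.37, -2.66 and -0.18. The gap between both sets was thus -0.25 and -0.26 on replicates 1 and 2 and -0.86 and -0.81 on replicates 3 and 4, while on the control arrays it lay between -0.07 and 0.05. The sets were formed after their values were seen, and the gap is given without a test.

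Anti-miR-214 replicate 4 stood apart from its own group in these genes more than in most. Its level minus the mean of replicates 1 to 3 was between 1.65 and 2.34 (log2) on the 11 globin probes, while over all tested probes the median of this difference was -0.02 and 1.09% of probes (202) reached 1 or more. At most 29 of 18601 tested probes, other probes of these same genes among them, had a larger value than any given globin probe. These ranks use the array-by-array values that chose the genes and carry no test. Alas2 (2.35) and Slc4a1 (1.76) were among the high probes too, with 7 and 22 tested probes above them. On the first principal component of all tested probes, replicate 4 did not lie between the groups. That component, with 55.8% of the variance, placed the controls between -33.8 and -27.1. Treated replicates 1 and 2 scored 14.5 and 15.4, whereas replicate 3 scored 46.2 and replicate 4 scored 49.1. Replicates 3 and 4 therefore lay side by side on that component and at opposite ends of the globin range of their group, with mean globin levels of 9.30 and 11.75 (log2). On the second component, with 14.3% of the variance, treated replicate 4 (-22.0) lay near control replicate 4 (-27.7), the other array of slide 2, and apart from the other treated arrays (2.98 to 18.9).

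**Figure D3:**
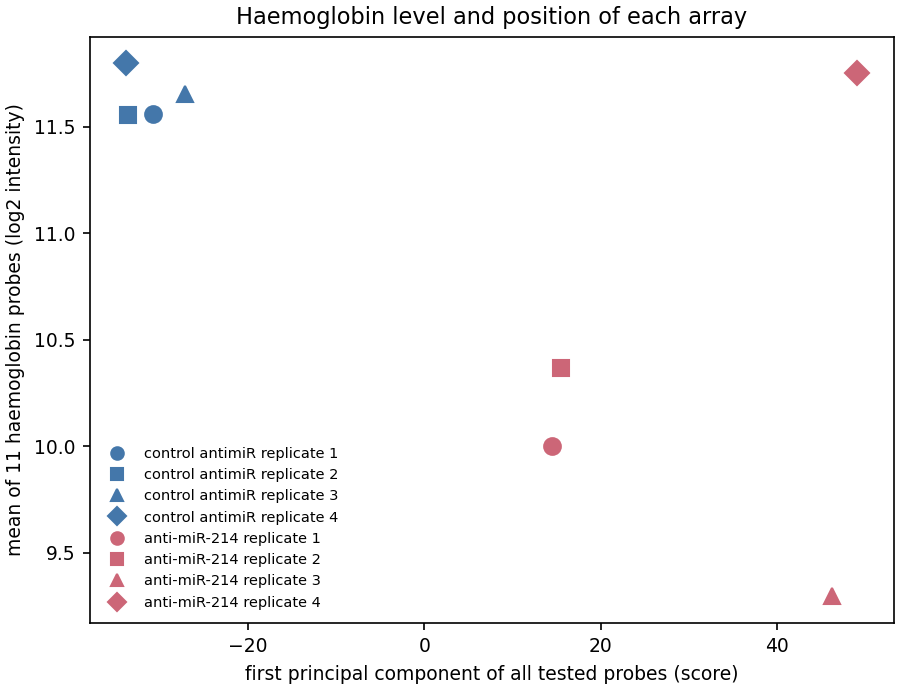
Mean log2 intensity of the 11 globin probes (vertical) against the score of each array on the first principal component of all tested probes (horizontal). The 4 controls lie at 11.56 to 11.80, and anti-miR-214 replicate 4 lies at 11.75 beside replicate 3, at 9.30, on the horizontal axis.

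Alas2, the erythroid enzyme that starts haem synthesis, read 196, 189, 196 and 223 on control replicates 1 to 4 and 197, 148, 155 and 314 on anti-miR-214 replicates 1 to 4. It was detected on all controls and on anti-miR-214 replicates 1 and 4 only, with detection p of 0.275 and 0.324 on replicates 2 and 3. The groups overlapped, and the normalized log2 level was 6.13 ± 0.44 with control antimiR against 6.08 ± 1.22 with anti-miR-214 (SD, n = 4), a difference of -0.05. The slides differed in sign, at -0.42 (slide 1) against 1.07 (slide 2). Leaving out the treated replicate 4 gave -0.64. Such a dim probe lies near the background of the array, so its log2 differences depend on both the background correction and the added offset. Over all arrays the difference was 0.02 without background correction and 0.03 with an offset of 50.

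Slc4a1, the anion exchanger of red cells and intercalated cells, went the other way from globin in the mean. It read 285, 397, 547 and 436 on the controls and 477, 322, 491 and 1144 on the treated arrays, so that in raw intensity 3 treated arrays lay within the controls' range and replicate 4 was 2.75 times the control mean. On the log2 scale it was at 7.97 ± 0.65 with control antimiR against 8.76 ± 0.97 with anti-miR-214 (SD, n = 4), and treated replicate 3 (8.76) was also just above the highest control (8.57). This made a difference of 0.79, with 0.48 within slide 1 and 1.73 within slide 2, and leaving out the treated replicate 4 gave 0.35. The mean log2 level of 11 tested intercalated cell genes was 8.22 to 8.82 on the controls, and on anti-miR-214 arrays it ran from 8.50 to 9.50, the last on replicate 4. On that array every tested gene of the list except Foxi1, a transcription factor gene of these cells, was above its control mean. The median slide 2 difference of the list was 0.95. Foxi1, whose other probes differed between the groups by -0.20 and 0.17, was at 6.62 on replicate 4 beside a control mean of 6.97. The kidney identity list was also highest there, at 11.60 beside at most 11.35 on the controls. Of those 11 genes 2 rose, the water channel gene Aqp6 (0.77, adjusted p = 0.0369) and the ammonia transporter gene Rhcg (0.74, adjusted p = 0.0376, limma), 0 fell and 9 did not pass. With arrays scaled to a common median neither passed (adjusted p = 0.0967 and 0.186) and 1 other gene of the list was lower. Aqp6 also did not pass without control replicate 1, 2 or 4 or treated replicate 3 or 4, and Rhcg passed only without treated replicate 1. The part of these cells in the Slc4a1 values was not tested.

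Across the 8 arrays the globin probes correlated closely with each other, with Pearson's r from 0.880 to 0.999 over 55 pairs (median 0.975). After subtraction of each group's mean, r was still 0.891 to 0.999 (median 0.975). Among the treated arrays, those with more alpha-globin signal also had more beta-globin signal. Among the controls, whose spread was small, this did not hold for every probe. On the normalized log2 scale control replicate 4 was the highest control on Hba-a1 (12.28) and the lowest on the dimmest Hbb-bt probe (7.59). In raw intensity it was the lowest control on both (4880 and 305). Alas2 correlated with the globin probes at 0.524 to 0.803, and at 0.813 to 0.916 for deviations from the group means. For Slc4a1 the values were -0.125 to 0.290 and 0.482 to 0.716. All these points share the same 8 arrays, anti-miR-214 replicate 4 weighs heavily in each, and the globin probes may read each other's messages, so the values describe the arrays and carry no test.

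Few other genes of the red cell lineage passed the test, and no direction is read from them. Of 82 genes in 5 lists (other globins, haem synthesis, red cell membrane, erythroid regulators and late erythroid genes), 68 were on the array and 37 were tested, of which 3 fell and 1 rose. The remaining 33 did not pass, and the median log2 difference of the 37 was 0.12. This is 4 of 37 genes, beside 22.3% of all 10734 named genes by their brightest probe (9.93% lower, 12.3% higher). At an unadjusted p under 0.05 the count was 9. The split was 6 lower and 0 higher with arrays scaled to a common median, and 3 lower and 0 higher in the authors' processed values. It was 5 lower and 0 higher without treated replicate 2, and 3 lower and 2 higher with slide as a block. In that order of settings, the 18601 tested probes gave 4509 lower and 551 higher, 2384 and 2038, 2620 and 2195, and 2740 and 2612. Ferrochelatase (Fech), which puts iron into haem in all cells, fell by 0.91 (SE 0.16, limma adjusted p = 0.00336), from 6.89 ± 0.22 to 5.98 ± 0.24 (SD, n = 4), with its other probe at -0.46. Glycophorin C (Gypc), a membrane protein of red cells and other cells, fell by 0.55 (SE 0.15, adjusted p = 0.0205). Carbonic anhydrase 2 (Car2), abundant in red cells and in intercalated cells, fell by 1.08 on its brightest probe (SE 0.29, adjusted p = 0.0205), with its other probe at -0.05. Mkrn1, a ubiquitin ligase gene, rose by 0.34 (adjusted p = 0.0491). The count of 4 was 2 without control replicate 1 or 4, and 1 without control replicate 2 or anti-miR-214 replicate 3. Within slides 1 and 2 the differences were -0.74 and -1.42 for Fech, -0.57 and -0.48 for Gypc, -1.09 and -1.08 for Car2, and 0.31 and 0.42 for Mkrn1. Fech passed whichever array was left out, although its brightest probe was detected on only 2 of 4 treated arrays. Gypc did not pass without control replicate 1 or 2 or treated replicate 3, Car2 did not without control replicate 2, 3 or 4 or treated replicate 3, and Mkrn1 passed in none of the 8 fits.

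**Figure D4:**
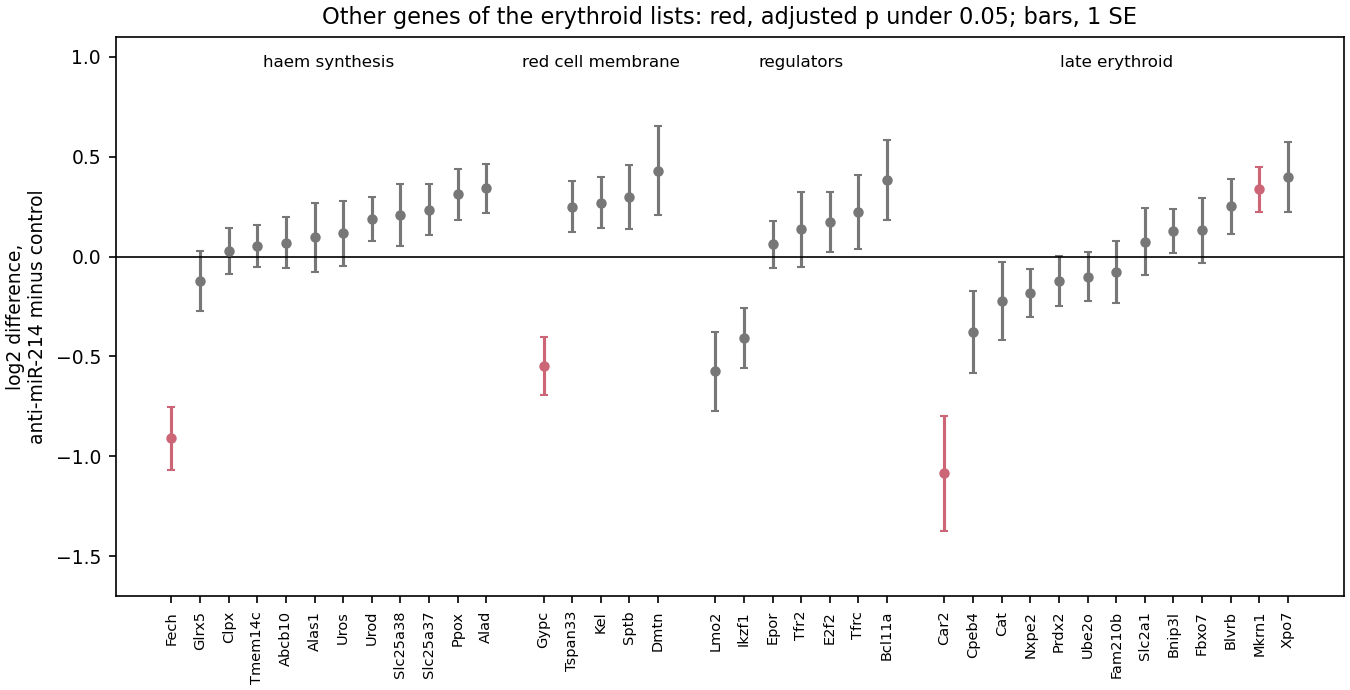
Log2 difference, anti-miR-214 minus control antimiR, of the tested genes of 4 erythroid lists by their brightest probe, with bars of 1 SE and genes past an adjusted p of 0.05 in red. Of 37 genes Fech, Gypc and Car2 lie below 0 and Mkrn1 above 0 past the threshold.

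By list, haem synthesis and mitochondrial iron import had 12 tested genes with 1 that fell, 0 that rose and a median of 0.11. The housekeeping form of the first enzyme, Alas1, was at 0.10 and did not pass. The red cell membrane list had 5 tested genes, 1 that fell and a median of 0.27, and the late erythroid list had 13, with 1 that fell, 1 that rose and a median of -0.08. Among 7 tested erythroid regulators none passed, and 2 had an unadjusted p under 0.05. The regulator of smallest p was Lmo2, a transcription cofactor of blood and endothelial cells, at -0.57 (limma adjusted p = 0.0542). Several of the tested genes, such as Car2, Cat and Prdx2, are also expressed by kidney cells, so these lists are not a measure of red cells alone. With arrays scaled to a common median the medians of these lists were -0.01, -0.03, -0.15 and, for regulators, -0.10 in place of 0.14, while the median of all tested probes shifted from 0.05 to -0.15.

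Of the 68 erythroid genes on the array, 37 passed the detection filter, and 26 were detected on no array by any probe. Among the undetected genes were the transcription factor gene Klf1 (raw intensity 124 to 164), the membrane protein genes Epb42 (123 to 154) and Rhag (98.1 to 150), the carbonic anhydrase gene Car1 (125 to 152) and Hemgn (110 to 168). Gata1, the master regulator of the lineage, reached detection on at most 3 of 8 arrays with any 1 probe. The embryonic and minor globin genes Hba-x, Hbb-bh1, Hbb-y, Hbq1a and Hbq1b, and Hbb-b2, a name of the alternative beta haplotype, had 8 probes that read 86.1 to 169 and were detected on 0 arrays.

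Of 17 tested genes that clear haemoglobin and haem or handle iron, 3 fell and 2 rose, with a median of -0.05. With arrays scaled to a common median 7 were lower and 0 higher, with a median of -0.25. Of all 18601 tested probes 4509 were lower and 551 higher under that scaling, with a median of -0.15. Transferrin (Trf), the iron carrier of plasma, fell by 1.65 (SE 0.27, limma adjusted p = 0.00276), the iron exporter gene Slc40a1 by 0.53 (adjusted p = 0.0128) and the iron regulatory protein gene Ireb2 by 0.51 (adjusted p = 0.037). Biliverdin reductase (Blvra) rose by 0.44 (adjusted p = 0.0349). The other gene that rose was Slc48a1, a haem transporter gene (0.35, adjusted p = 0.0485), and under median scaling neither it nor Blvra passed (adjusted p = 0.181 and 0.0986). Leaving out each array in turn, Trf and Slc40a1 passed in 8 of 8 fits, and Blvra and Ireb2 in 3 of 8, both being lost without control replicate 1 or 4 or treated replicate 3 or 4. Haem oxygenase 1 (Hmox1), which breaks haem down, was at -0.79 with a wide spread and did not pass (adjusted p = 0.144). Among 10 tested genes of the hypoxia response 3 fell and 0 rose. These were the oxygen-regulated transcription factor genes Hif1a (-1.77, adjusted p = 0.000324) and Epas1 (-0.68, adjusted p = 0.00299) and the oxygen sensor gene Egln1 (-0.71, adjusted p = 0.0367, limma), the last of which passed only without control replicate 1 or treated replicate 2. The Hif1a probe was detected on 2 of 4 treated arrays and the Egln1 probe on 1 of 4, so their treated levels lay near the background. The Epas1 probe was detected on 4 of 4. Erythropoietin (Epo) itself was on the array and was not tested because its probe did not pass the detection filter.

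Most tested genes of the other cells carried by blood did not pass, which also held for all named genes, of which 22.3% passed. Few were tested, with 3 of 14 platelet, 6 of 15 neutrophil and 7 of 17 lymphocyte genes. Of 3 tested platelet genes Nrgn rose by 0.53 (limma adjusted p = 0.0177, and 0.13 under median scaling), and the platelet chemokine gene Pf4 was at -0.29 and did not pass. None of 6 tested neutrophil genes passed, and 1 had an unadjusted p under 0.05, the granule protease gene Prtn3 at 0.46 (adjusted p = 0.0779). Among 7 lymphocyte genes Prf1 rose by 0.91 (limma adjusted p = 0.00231) and 6 did not pass. With arrays scaled to a common median 1 lymphocyte gene was lower and 1 higher. The mean level of the neutrophil list was 7.45 to 7.99 on control and 7.49 to 7.97 on anti-miR-214 arrays, so the groups overlapped.

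Some genes of vessel wall cells and of macrophages fell. Of 14 endothelial genes 3 fell and 11 did not pass. Pecam1 was at -1.17 (limma adjusted p = 0.0135, other probes -0.37 and -0.21), Plvap at -1.03 (adjusted p = 0.0192) and Cdh5 at -0.97 (adjusted p = 0.0349, other probe -0.27), and Cdh5 passed only without control replicate 3 or treated replicate 2. The mean level of the 14 endothelial genes was 9.44 to 9.87 on control and 8.96 to 9.70 on anti-miR-214 arrays. Among 12 monocyte and macrophage genes, 8 were lower and 0 higher with arrays scaled to a common median. Under that scaling 4509 of all 18601 tested probes were lower and 551 higher. In the main setting 4 of the 12 genes fell and 8 did not pass. Those that fell were the lysozyme gene Lyz2 at -2.32 (its other probes read -0.57 and -0.43), Mrc1, which encodes the mannose receptor, at -1.18, the chemokine receptor gene Cx3cr1 at -0.96 and the endotoxin co-receptor gene Cd14 at -0.51 (limma adjusted p = 0.00206, 0.00576, 0.00708 and 0.0423). Cd14 passed only without control replicate 2 or treated replicate 1 or 2. The macrophage list was at 9.71 to 9.94 on control and 8.78 to 9.55 on anti-miR-214 arrays. On slide 2 the macrophage list had a median difference of -0.65 and the endothelial list of -0.42, where the 11 globin probes had a median of about 0. The part of vessels or macrophages in the globin values was not tested.

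**Figure D5:**
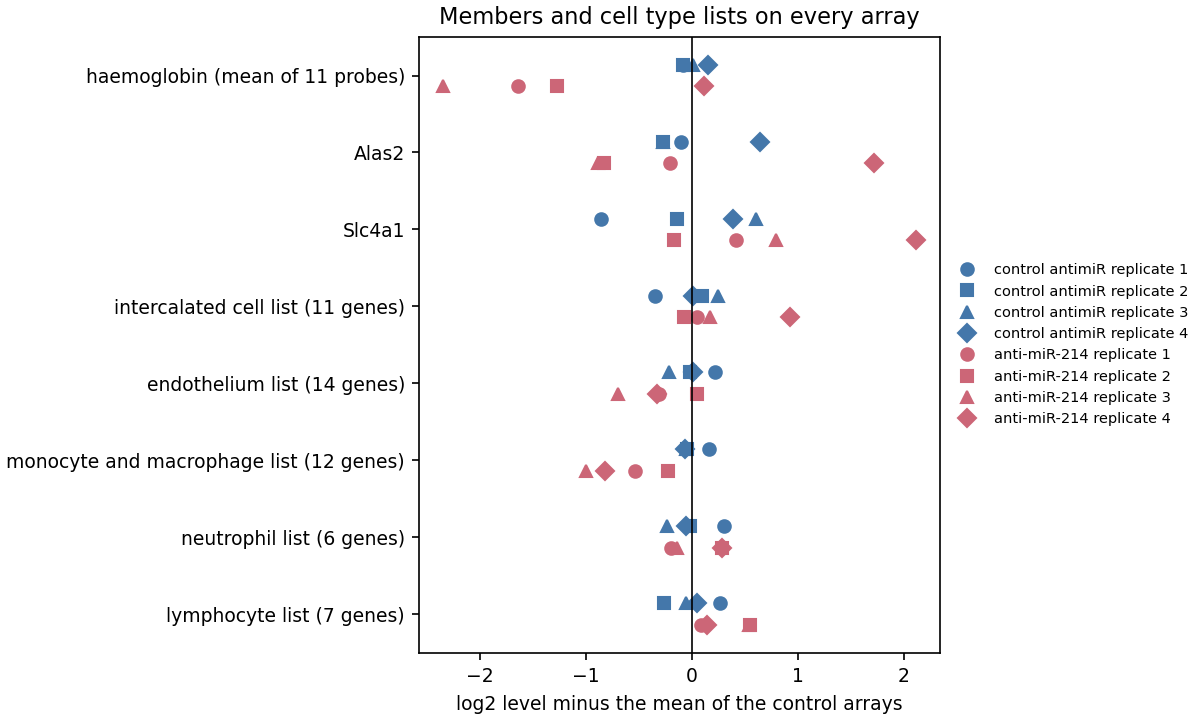
Log2 level of each array minus the mean of the controls for the globin mean, Alas2, Slc4a1 and the mean of 5 cell type lists, with a marker for each replicate number. Anti-miR-214 replicate 4 lies apart from its group in the globin mean, Alas2, Slc4a1 and the intercalated cell list.

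To find which genes ran most like globin, each of 10729 other named genes was correlated with the mean globin profile over the 8 arrays. The highest values were those of Npr3, the clearance receptor of natriuretic peptides (r = 0.955), Ap4e1 (0.954), Rnf138 (0.952), Dpep1, a dipeptidase of the proximal tubule brush border (0.952), Osbp (0.940), A730008H23Rik (0.939), the receptor kinase gene Kit (0.934), Scd2 (0.932), Nfic (0.932) and Tspan12 (0.931). Npr3, for example, was at 7.22 ± 0.18 with control antimiR against 6.38 ± 0.70 with anti-miR-214 (log2, SD, n = 4), with 7.26 on anti-miR-214 replicate 4. Alas2 (0.637) had 858 genes above it in this order and Slc4a1 (0.015) had 4413.

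With each group's mean subtracted, the order was led by Dipk1b (0.983), Cd300lg, an endothelial surface protein gene (0.969), Tomm40 (0.965), Alg13 (0.963), Ehd3, a gene of the glomerular endothelium (0.962), and Rnf138 (0.959). Papola (0.957), Slc27a1 (0.951), Dcun1d3 (0.941) and Atp4a, a proton pump gene (0.940), completed the first 10. Cd300lg read 7.59, 7.87, 7.27 and 8.61 (log2) on anti-miR-214 replicates 1 to 4, with the highest value on replicate 4 and the lowest on replicate 3, as in globin. Alas2 (0.874) had 57 genes above it in this order and Slc4a1 (0.583) had 920. Both orders rest on 8 arrays and carry no test.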

How the data were processed

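Per the labels' protocols, total RNA was column-purified with a DNase step, and biotinylated cRNA was made from it for Illumina arrays. Per the file headers, the deposited main table holds a non-normalized intensity and a detection p-value for each probe and array. A second deposited table holds processed intensity values whose making is not given in the sources used here. Each of its arrays had the rank order of the first table (lowest Spearman's rho 1), an upper quartile of 147.7, a median of 20.2 to 20.4 and 29.0% to 29.2% of values below 0. Its scale is linear with an unknown background subtraction and normalization, and it served as an alternative. The sources used here name neither scanner nor software.

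Intensities were corrected and normalized with neqc of limma 3.58.1 in R 4.3.3 (negative controls inferred from detection p, offset 16, quantile normalization, log2). The offset draws differences of dim probes toward 0, and quantile normalization leaves no trace of a change common to every gene. Probes detected at p under 0.05 on at least 4 of 8 arrays were fitted with lmFit and eBayes with group as the only term, adjusted by Benjamini-Hochberg over 18601 probes. The fit was tested on simulated data. Arrays have no read depth, and their number limits the precision. A gene was represented by its brightest tested probe. Of all probes 34885 had 1 symbol, 18 several and 10378 none, and updating through gene numbers changed 0 symbols.

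The members and the 14 gene lists were chosen with earlier results of these data known. Genes named were the members, up to 4 genes of smallest p past the threshold in each list or the 1 of smallest p where none passed, and 10 genes most like globin in each of 2 orders. Other list genes named (Alas1, Hmox1, Epo, Slc48a1, Foxi1, Pf4, Cat, Prdx2 and the undetected precursor and globin genes) were picked after their values were seen. Alternatives were other scaling, background, offset, filter, slide and replicate blocks, array weights, the authors' table and leaving out each array.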

Additional observations from a re-analysis of the deposited data

Results flagged for a closer look

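Among the values reported, 80 groups of 4 arrays were searched for a single array far from the other 3, and 1 was found. Chance alone flags about 1 in 20 groups, so a single find is no excess. Many of the groups were not independent, such as those of the globin probes and their mean, and nothing more is read from the tally. It was the vascular gene Plvap on control replicate 1, at 11.82 on the log2 scale beside 11.38 to 11.45 on the other controls. The search used log2 values, and on that scale no globin probe was found.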

How the results depend on the processing

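The median log2 difference of the 11 globin probes stayed below 0 in all 18 alternatives (-1.71 to -0.89), both ends coming from leaving out 1 array, -1.71 without anti-miR-214 replicate 4. The differences of Hba-a1, Hbb-bs and Hbb-bt by their brightest probe stayed below 0 in all 19 alternatives, and that of Slc4a1 above 0 (0.35 to 1.11). Alas2 was below 0 in 13 of 18 and above 0 in 5 (-0.65 to 0.22). All probes past the threshold numbered 4761 in the main setting, 2556 on slide 1 alone and 2943 to 4815 without any 1 array, the lowest without anti-miR-214 replicate 3 and 3027 without control replicate 2. Other erythroid genes past the threshold numbered 4 in the main setting, 1 on slide 1 alone and 1 to 5 without any 1 array. The globin probes past the threshold numbered 7 in the main setting, 11 on slide 1 alone and 3 without a filter on dim probes. All probes past the threshold and lower numbered 2566 of 18601, 1475 of 18601 and 2505 of 45281 in these 3 settings. With slide as a block 5352 probes, 9 globin probes and 5 other erythroid genes (3 lower, 2 higher) passed. Arrays scaled to a common median gave 4509 lower and 551 higher probes (89.1% of calls lower, beside 53.9%). Replicate numbers did not pair the samples (correlations of same-numbered deviations 0.02, 0.06, 0.05 and 0.20), and with the replicate number as a block 4598 probes and 3 other erythroid genes passed, and the globin median was the same -1.29. The few arrays and dim probes such as Alas2 limit what can be seen, and the causes of these shifts were not tested.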
